A study of Mus musculus with 24 samples.

Results

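The chromosome 9 genes of EO771 cells, a mouse mammary carcinoma line, were profiled by their order along the chromosome. A gene was included if its first chromosome entry in the count table was 9 and it had at least 10 counts in 4 or more libraries of batch 1. This took in 712 of the 2842 chromosome 9 genes in the table, which holds 55471 genes in all. The genes were chosen by measured counts and, as a set, because earlier results of these data showed part of chromosome 9 raised, so the level of the chromosome is a description here and was given no test. Of the included genes, 706 were also listed in the batch 2 table. Of the genes just inside the rule, 15 had 10 counts in exactly 4 libraries, with a highest count of 11 to 59, and the 18 genes just outside it had 10 counts in 3 libraries, with a highest count of 11 to 28.

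Polyadenylated RNA of 4 cell derivatives was sequenced in 24 libraries. X2 cells carried the empty retroviral vector, and CCR7 cells carried the same vector with mouse Ccr7, the receptor for the lymph node chemokines CCL19 and CCL21. CCR7-PDPN and X2-PDPN cells were sorted by flow cytometry from these populations for podoplanin (PDPN), a mucin-type membrane glycoprotein. All derivatives came from the EO771 line of C57BL/6 mice, were grown in the same medium and carried the tdTomato reporter. CCR7 was sequenced in batch 1 alone and X2-PDPN in batch 2 alone, while X2 and CCR7-PDPN were in both, which makes 6 groups of 4 libraries. No clones were selected. The column headers of the CCR7 libraries name a PDPN-minus sort. The libraries of a group were technical replicates of 1 population, so all p-values measure the technical spread and not the spread between independent transductions or sorts. In bulk RNA, a level shared by all cells and a higher level in some of them cannot be told apart.

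Library totals lay between 22275468 and 35721027 counts. The transgene checked the labels: Ccr7 was at 0.653 ± 0.291 TPM (SD, n = 4; a count divided by exonic length and scaled to the library) in X2 of batch 1 and at 5310 ± 140 TPM in CCR7. Pdpn was at 52.9 ± 0.261 TPM in X2-PDPN and at 0.33 ± 0.161 TPM in X2 of batch 2. Of 4 epithelial markers, Krt8 alone was above 1 TPM in X2 of batch 1, while 3 of 4 mesenchymal markers (Vim, Twist1 and Zeb1) were. Of 7 markers of macrophages and granulocytes, Cd68 and Lyz2 alone were above 1 TPM. Their sum with the other 5 was 161 TPM for X2, 55.5 for CCR7 and 29.9 for CCR7-PDPN in batch 1, where Adgre1, Csf1r, Ngp and Camp had at most 8 counts in any library and Ltf had 0. In batch 2, where 2 of the 7 were listed, the sum was 158 TPM for X2, 81.8 for X2-PDPN and 27.6 for CCR7-PDPN. Of 5 T cell markers, Lck alone was above 1 TPM, at 6.77 TPM in X2 and 3.58 TPM in CCR7-PDPN of batch 1. Of 4 fibroblast markers, Pdgfra alone was, at 58.4 and 55.2 TPM, and of 4 endothelial markers 0 were. The part of these cells or genes in the results was not tested.

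Each gene on a mammalian chromosome is transcribed from its own promoter, but neighbours share their DNA copy number and part of their chromatin surroundings. Neither was measured in these libraries. Mouse chromosome 9 carries, from its centromeric end, the inflammatory caspases and a cluster of matrix metalloproteinases, and further along it the DNA damage kinases Chek1, Atm and Atr, the fatty acid elongase Elovl5 and the TGF-beta signal transducers Smad3 and Smad6.

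The promoters below show the sequence context of genes that the results turn on. Chek1, the checkpoint kinase, and Stt3a, a subunit of the oligosaccharyltransferase, are neighbours on the 2 sides of a border between a raised and a level stretch. Elovl5 lies in the highest window, and Acp5, a tartrate-resistant acid phosphatase, and Casp4, an inflammatory caspase, lie in a level stretch but moved far from their neighbours. Each line gives the 250 bases before the annotated start in RefSeq (GRCm38.p6), on the strand of the gene. No match was found in the windows of Chek1 and Casp4. Capitals mark matches, on either strand, to the TATA box (TATAAA), the CCAAT box (CCAAT) and the GC box (GGGCGG).
Chek1: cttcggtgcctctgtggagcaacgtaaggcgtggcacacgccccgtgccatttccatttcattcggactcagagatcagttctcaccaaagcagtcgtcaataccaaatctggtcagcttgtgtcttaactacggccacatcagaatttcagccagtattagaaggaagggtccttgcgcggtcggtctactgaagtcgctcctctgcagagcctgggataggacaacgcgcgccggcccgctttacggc
Stt3a: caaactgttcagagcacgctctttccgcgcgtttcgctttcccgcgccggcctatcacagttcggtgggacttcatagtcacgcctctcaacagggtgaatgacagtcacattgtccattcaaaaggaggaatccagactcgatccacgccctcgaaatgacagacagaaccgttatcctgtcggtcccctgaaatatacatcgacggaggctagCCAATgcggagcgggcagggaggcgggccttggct
Elovl5: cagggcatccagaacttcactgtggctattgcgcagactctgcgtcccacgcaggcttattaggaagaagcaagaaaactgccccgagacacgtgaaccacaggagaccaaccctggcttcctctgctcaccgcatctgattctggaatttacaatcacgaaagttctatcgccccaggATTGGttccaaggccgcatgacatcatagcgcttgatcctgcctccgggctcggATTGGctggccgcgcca
Acp5: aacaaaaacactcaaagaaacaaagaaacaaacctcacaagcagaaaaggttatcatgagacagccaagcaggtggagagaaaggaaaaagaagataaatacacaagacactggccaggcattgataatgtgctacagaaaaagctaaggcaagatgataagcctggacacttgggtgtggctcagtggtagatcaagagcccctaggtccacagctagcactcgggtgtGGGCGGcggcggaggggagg
Casp4: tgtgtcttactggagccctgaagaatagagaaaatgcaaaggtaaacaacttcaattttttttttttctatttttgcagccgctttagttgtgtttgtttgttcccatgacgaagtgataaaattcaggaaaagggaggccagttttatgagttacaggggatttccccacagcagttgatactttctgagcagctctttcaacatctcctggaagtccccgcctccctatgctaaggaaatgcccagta

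The windows shown were chr9:36726659-36726908 for Chek1 (minus strand), chr9:36767623-36767872 for Stt3a (minus strand), chr9:77917115-77917364 for Elovl5 (plus strand), chr9:22135747-22135996 for Acp5 (minus strand) and chr9:5308599-5308848 for Casp4 (plus strand). The Chek1 window ends 407 bases from the 5′ end of the gene in the count table, and the others within 57 bases of it. A promoter was found by symbol and strand for 563 of the 712 genes. A GC box was present in 66.6% of the 374 promoters of raised segments, in 55% of the 189 of level segments and in 32.7% of all 32851 promoters. For the CCAAT box the shares were 35%, 38.6% and 33.8%, and for the TATA box 6.42%, 7.94% and 12.4%. The 2 kinds of segment are defined further on, and all promoters include those of genes not expressed here.

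In CCR7 cells, most chromosome 9 genes were modestly higher than in X2. The median log2 fold change was 0.33, against 0.0033 over all genes tested, and chromosome 9 had the highest median of 20 chromosomes. Of the 704 chromosome 9 genes tested, 420 were higher (59.7%, against 24% of all 13261 genes tested) and 85 were lower (12.1%, against 25.2%). With a change of over 2-fold as well, 37 were higher (5.26%, against 3.3%) and 14 lower (1.99%, against 3.18%). The counts beyond 2-fold rested partly on genes with few counts, and fell to 17 and 9 with at least 50 counts in 4 libraries. The typical change was small and shared by many genes. Elovl5 and Ccnb2, shown next, both changed by more than the median of 0.33, and Elovl5 lies in the highest window. Elovl5 stood at 102, 98.5, 100.5 and 101 TPM in the 4 X2 libraries and at 169, 173, 174 and 175 TPM in the 4 CCR7 libraries. These groups did not overlap (log2 fold change 0.78, SE 0.029, adjusted p = 3.01e-15; edgeR quasi-likelihood test, Benjamini-Hochberg adjustment over all genes tested, as for every adjusted p here). Ccnb2, a mitotic cyclin, was at 206, 211, 211 and 204 TPM in X2 and at 309, 309, 286 and 297 TPM in CCR7 (log2 fold change 0.53, SE 0.036, adjusted p = 7.68e-11).

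CCR7-PDPN cells showed a like picture against X2 in both batches. The median log2 fold change was 0.32 in batch 1 and 0.33 in batch 2. For batch 1, of the 704 chromosome 9 genes tested, 418 were higher (59.4%, against 30.3% of all 13261 genes tested) and 100 were lower (14.2%, against 30.6%). By over 2-fold, 49 were higher (6.96%, against 4.09%) and 25 lower (3.55%, against 5.36%). For batch 2, of the 697 chromosome 9 genes tested, 432 were higher (62%, against 32.0% of all 13314 genes tested) and 106 were lower (15.2%, against 32.8%). With a change of over 2-fold, 46 were higher (6.6%, against 3.96%) and 21 lower (3.01%, against 5.67%). The 2 comparisons share no library. Of 693 genes tested in both, 415 were higher in batch 1 and 432 in batch 2, and 401 were higher in both (96.6% of the first and 92.8% of the second). Lower in both were 92 genes (92.9% of 99 and 86.8% of 106). Both batches hold the same derivatives, and the matching shares over all genes were not computed. Nothing particular to chromosome 9 is therefore read from these shares. Anxa2, the annexin that binds plasminogen at the cell surface, was at 542 ± 6.5 TPM in X2 and 728 ± 17.1 TPM in CCR7-PDPN of batch 2 (SD, n = 4), with no overlap (log2 fold change 0.45, SE 0.025, adjusted p = 7.96e-20).

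X2-PDPN cells, which carry no Ccr7 transgene, were higher than X2 by a smaller amount. The median log2 fold change was 0.13, the second highest of 20 chromosomes. Of the 697 chromosome 9 genes tested, 330 were higher (47.3%, against 28.2% of all 13314 genes tested) and 95 were lower (13.6%, against 28.5%). With a change of over 2-fold, 28 were higher (4.02%, against 3.51%) and 6 lower (0.861%, against 1.55%). Of the 2 genes shown next, Smad3 changed by more than the median of 0.13, and Chek1 lay near it. Smad3, which carries TGF-beta signals to the nucleus, was at 52.2, 49.97, 50.6 and 51.9 TPM in X2 and at 73, 67.7, 74.3 and 71.6 TPM in X2-PDPN, all 4 above all 4 (log2 fold change 0.48, SE 0.031, adjusted p = 2.25e-17). Chek1 was at 31.1 ± 0.715 TPM in X2 and 34.4 ± 1.12 TPM in X2-PDPN (log2 fold change 0.14, SE 0.041, adjusted p = 0.0034), against 40.3 ± 2.37 TPM in CCR7-PDPN.

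Set directly against X2-PDPN, CCR7-PDPN cells of batch 2 were again higher, with a median of 0.18. Of the 697 chromosome 9 genes tested, 374 were higher (53.7%, against 31.2% of all 13314 genes tested) and 122 were lower (17.5%, against 32.0%). Counting only changes of over 2-fold, 15 were higher (2.15%, against 2.76%) and 30 lower (4.3%, against 6.4%). Eef1a1, the translation elongation factor, was among the higher genes (log2 fold change 0.45, SE 0.024, adjusted p = 3.72e-21), although reads of such a gene can be shared with processed copies. Against CCR7 in batch 1, the median of CCR7-PDPN was 0.010. Of the 704 chromosome 9 genes tested, 137 were higher (19.5%, against 20.9% of all 13261 genes tested) and 98 were lower (13.9%, against 20.7%). By over 2-fold, 7 were higher (0.994%, against 0.664%) and 17 lower (2.41%, against 2.6%). At any size, the share higher lay near the background and the share lower below it. Leaving out 1 library in turn gave 113 to 171 genes higher and 79 to 137 lower.

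The PDPN difference was then compared with and without CCR7, as CCR7-PDPN minus CCR7 in batch 1 less X2-PDPN minus X2 in batch 2. Batch and CCR7 status cannot be told apart in it. The median over chromosome 9 was -0.11. Of the 706 chromosome 9 genes tested, 60 were higher (8.5%, against 20.3% of all 13690 genes tested) and 236 were lower (33.4%, against 20.5%). Counting only differences of over 2-fold, 5 were higher (0.708%, against 0.964%) and 33 lower (4.67%, against 4.48%). In the raised segments described further on, 187 of 455 genes were lower and 24 higher. In the level segments, 49 of 251 were lower and 36 higher. The raised segments were placed where CCR7 of batch 1 was high, and CCR7 of batch 1 is subtracted here. That choice favours lower values in the raised segments, so nothing is read from their counts. Ncam1, a neural cell adhesion molecule of the second level segment, had a lower PDPN difference with CCR7 (log2 fold change -2.37, SE 0.5, adjusted p = 1.98e-04). The count higher by over 2-fold was 1 without CCR7 replicate 3 or without X2-PDPN replicate 4, 2 without CCR7-PDPN replicate 4 of batch 1, and 3 without any of CCR7 replicates 1 and 2, CCR7-PDPN replicates 2 and 3 of batch 1, X2 replicate 3 of batch 2 and X2-PDPN replicate 1.

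**Figure D1:**
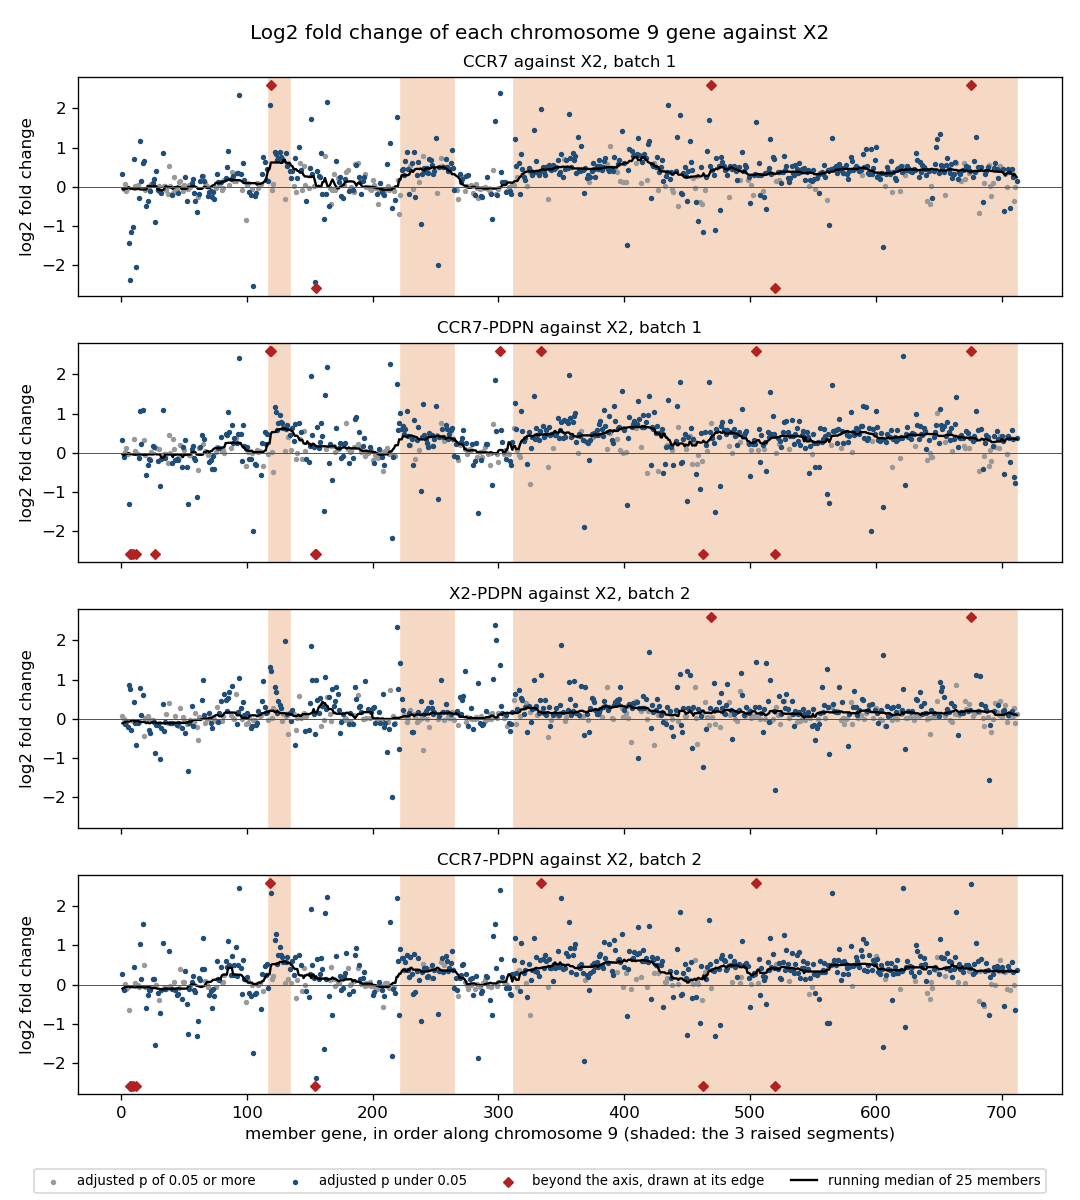
Log2 fold change of each chromosome 9 gene against X2, in gene order along the chromosome (horizontal axis: rank of the gene), with 1 panel per comparison. Points are genes, the line is the running median of 25 genes, shading marks the 3 raised segments, and diamonds are genes beyond the axis drawn at its edge. In the panels of CCR7 and CCR7-PDPN, the running median lies above 0 over most of the shaded genes. The medians of the 3 unshaded segments are 0.029, 0.011 and -0.029 in CCR7, and -0.019, 0.065 and 0.037 in CCR7-PDPN of batch 2. In X2-PDPN the second level segment, at 0.12, is about as high as the second raised segment, at 0.11.

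The change was not spread evenly along the chromosome. It was read in 5 Mb windows numbered from the centromeric end, each given the median log2 fold change of its tested genes, and called raised at 0.25 or more and lowered at -0.25 or less. All 25 windows held at least 5 tested genes. Shares over the genome, here and elsewhere, include chromosome 9 itself. In CCR7 against X2, 14 of 25 were raised, against 23 of 471 such windows (4.88%) over the genome, and 0 were lowered, against 7.86%. In CCR7-PDPN against X2, 13 were raised, against 5.31% of such windows over the genome, and 0 were lowered, against 9.77%, in batch 1. In batch 2 the same pair of derivatives gave windows of which 12 were raised, against 5.12% of such windows over the genome, and 0 were lowered, against 10.9%.

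Windows 1 to 6, which cover the first 30 Mb, had medians of -0.16 to 0.048 in CCR7 against X2. Window 7 (30 to 35 Mb) lay just under the limit, at 0.24. Window 8 (35 to 40 Mb) stood at 0.57, windows 9 and 10 (40 to 50 Mb) at 0.13 and -0.078, window 11 (50 to 55 Mb) at 0.46 and window 12 (55 to 60 Mb) at 0.019. From window 13 to window 25 the medians lay between 0.23 and 0.74, with the highest in window 16 (75 to 80 Mb) and the lowest in window 17 (80 to 85 Mb). Raised and level windows thus alternated up to 60 Mb, and all windows beyond it but window 17 were raised. In CCR7-PDPN of batch 2, window 8 stood at 0.52, window 12 at 0.077, window 16 at 0.62 and window 17 at 0.071. Windows 17 to 19 (80 to 95 Mb) formed a dip there, at 0.071, 0.12 and 0.24.

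Some genes named for lying nearest to the median of a raised window give its typical size. Dcps, the scavenger decapping enzyme, lay in window 8 (log2 fold change 0.52, SE 0.034, adjusted p = 5.80e-18, in CCR7-PDPN of batch 2). Rab11a, a GTPase of recycling endosomes, lay in window 13 (log2 fold change 0.43, SE 0.033, adjusted p = 2.84e-15). Gclc, the catalytic subunit of glutathione synthesis, lay in window 16 (log2 fold change 0.60, SE 0.029, adjusted p = 1.58e-22). Map4, a microtubule-associated protein, lay in window 23 (log2 fold change 0.40, SE 0.027, adjusted p = 4.12e-17), and Rpl14, a ribosomal protein, in window 25 (log2 fold change 0.33, SE 0.027, adjusted p = 9.01e-15).

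In X2-PDPN against X2, 2 of 25 were raised, against 7 of 469 such windows (1.49%) over the genome, and 0 were lowered, against 4.9%. The raised windows were 15 and 16 (70 to 80 Mb), at 0.29 and 0.28. Adam10, a membrane sheddase, was near the median of window 15 (log2 fold change 0.32, SE 0.03, adjusted p = 1.36e-12), and Tmod3, which caps actin filaments, near that of window 16 (log2 fold change 0.28, SE 0.032, adjusted p = 3.54e-10). These calls lay close to the limit: the raised windows held 7.17% of tested genes with all libraries, 3.71% without X2-PDPN replicate 1, and 11.3% without X2 replicate 1 or without X2-PDPN replicate 4. Window 17 stood at -0.050 and window 8 at 0.11. In CCR7-PDPN against X2-PDPN, 8 were raised, against 3.84% of such windows over the genome, and 0 were lowered, against 7.89%. With a limit of 0.35 in place of 0.25, no window was raised in X2-PDPN against X2 or in CCR7-PDPN against X2-PDPN. In CCR7-PDPN against CCR7, 0 were raised, against 0.0% of such windows over the genome, and 0 were lowered, against 3.18%, and window medians lay between -0.22 and 0.058. Without CCR7 replicate 1 or without CCR7-PDPN replicate 2, lowered windows held 1.69% of tested genes in that comparison. In CCR7-PDPN against X2 of batch 2, they held 0.997% without CCR7-PDPN replicate 4.

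Window profiles of comparisons with no library in common were set side by side as a description over 25 windows. CCR7 against X2 of batch 1 and CCR7-PDPN against X2 of batch 2 had the same sign in 25 windows, with a Pearson r of 0.965 and a Spearman rho of 0.969. CCR7 against X2 of batch 1 and X2-PDPN against X2 of batch 2 had the same sign in 23 windows, with a Pearson r of 0.808 and a Spearman rho of 0.732. The windows share gene content, and the X2 libraries of both batches come from the same derivative.

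**Figure D2:**
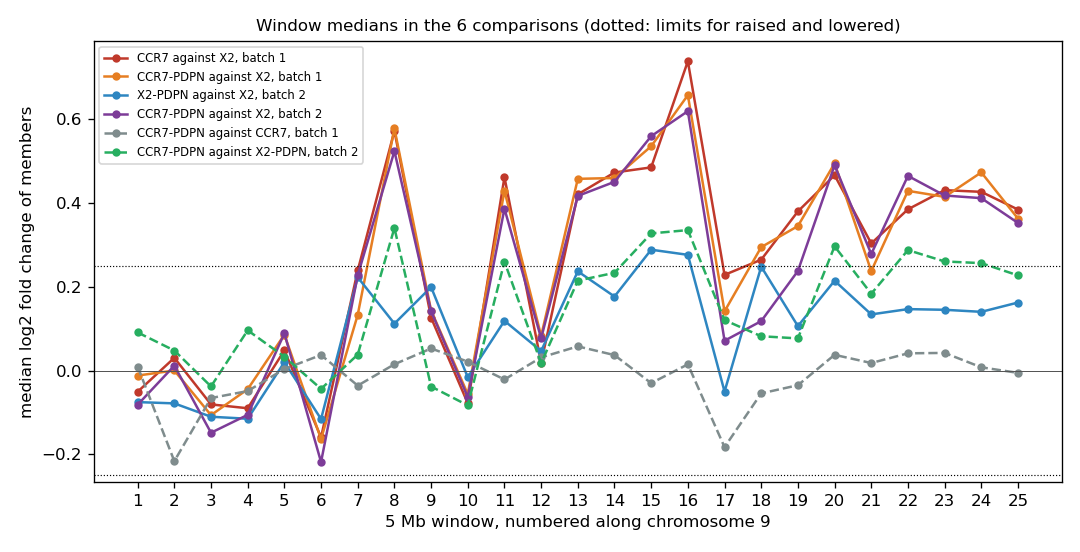
Median log2 fold change of the tested genes of each 5 Mb window (vertical axis) against the number of the window along chromosome 9 (horizontal axis), with 1 line per comparison. Dotted lines mark 0.25 and -0.25. The 3 comparisons of CCR7 and CCR7-PDPN with X2 have peaks at windows 8, 11 and 16, X2-PDPN against X2 is lower at these windows, and CCR7-PDPN against CCR7 stays between the dotted lines.

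Borders were placed in gene order by a least-absolute-deviation segmentation of CCR7 against X2 in batch 1, added after the window profile had been seen. With a penalty of 2.5 for each further segment, it gave 6 segments, a number that changed with the penalty, as given further on. The first level segment ran from Alkbh8 to Ets1 (3.36 to 32.7 Mb, 117 genes), and the first raised segment from Gm32171 to Chek1 (33.2 to 36.7 Mb, 17 genes). The second level segment ran from Stt3a to Plet1 (36.7 to 50.5 Mb, 88 genes), and the second raised segment from Pts to Scaper (50.5 to 55.7 Mb, 42 genes). The third level segment ran from Rcn2 to Gm49759 (56.1 to 59.7 Mb, 48 genes), and the distal raised segment from Gramd2 to Ppp2r3d (59.7 to 124 Mb, 400 genes). In the comparison that placed the borders, their medians were 0.029, 0.71, 0.011, 0.47, -0.029 and 0.42 in this order. In CCR7-PDPN against X2 of batch 2, whose libraries were not used, they were -0.019, 0.70, 0.065, 0.39, 0.037 and 0.42. In X2-PDPN against X2 they were -0.023, 0.28, 0.12, 0.11, 0.041 and 0.17.

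In CCR7-PDPN against X2 of batch 2, 339 of 449 (75.5%) tested genes of the raised segments were higher, and 93 of 248 (37.5%) of the level segments, against 32.0% over the genome. In X2-PDPN against X2 the shares were 245 of 449 (54.6%) and 85 of 248 (34.3%), against 28.2%. Not all genes of the raised segments rose, and 36 of their genes were lower in CCR7-PDPN of batch 2 (8.02%, against 32.8%). The genes between the lower and upper quartile in the distal raised segment lay between 0.21 and 0.60.

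Values were also computed for each library. Counts were scaled by library total and TMM factor to log2 CPM. A segment value per library was the median over its genes of log2 CPM less the mean of the batch's X2 libraries. In the distal raised segment it was 0.0078, -0.0015, -0.0048 and 0.0011 in X2, 0.42, 0.40, 0.41 and 0.41 in CCR7 and 0.42, 0.42, 0.43 and 0.42 in CCR7-PDPN of batch 1. X2 stood apart from the other groups, and CCR7 and CCR7-PDPN overlapped. The borders were placed with X2 and CCR7 of batch 1, and X2 lies near 0 because its own mean is subtracted. Nothing is therefore read from the separation of X2 in batch 1. The libraries of batch 2 placed no border. There the value of the distal raised segment was 0.0087, -0.0058, 9.4e-05 and 0.0057 for X2, 0.17, 0.17, 0.16 and 0.16 for X2-PDPN and 0.41, 0.42, 0.42 and 0.42 for CCR7-PDPN. These 3 groups did not overlap. X2 lies near 0 there too because its own mean is subtracted. Batch 2 holds the same X2 and CCR7-PDPN derivatives, and the chromosome was chosen with earlier results known. The separation of X2 in batch 2 is therefore a description and no independent support. In the first raised segment, X2-PDPN lay at 0.19, 0.25, 0.27 and 0.29 and CCR7-PDPN at 0.58, 0.70, 0.68 and 0.71, with the library labelled replicate 1 the lowest in each. Over all level segments, CCR7-PDPN lay at 0.020, 0.045, 0.030 and 0.019 in batch 2, and X2-PDPN overlapped with it at 0.025, 0.033, 0.047 and 0.034. The second level segment was higher in X2-PDPN, at 0.13, 0.11, 0.15 and 0.15, than in CCR7-PDPN, at 0.038, 0.074, 0.074 and 0.068.

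**Figure D3:**
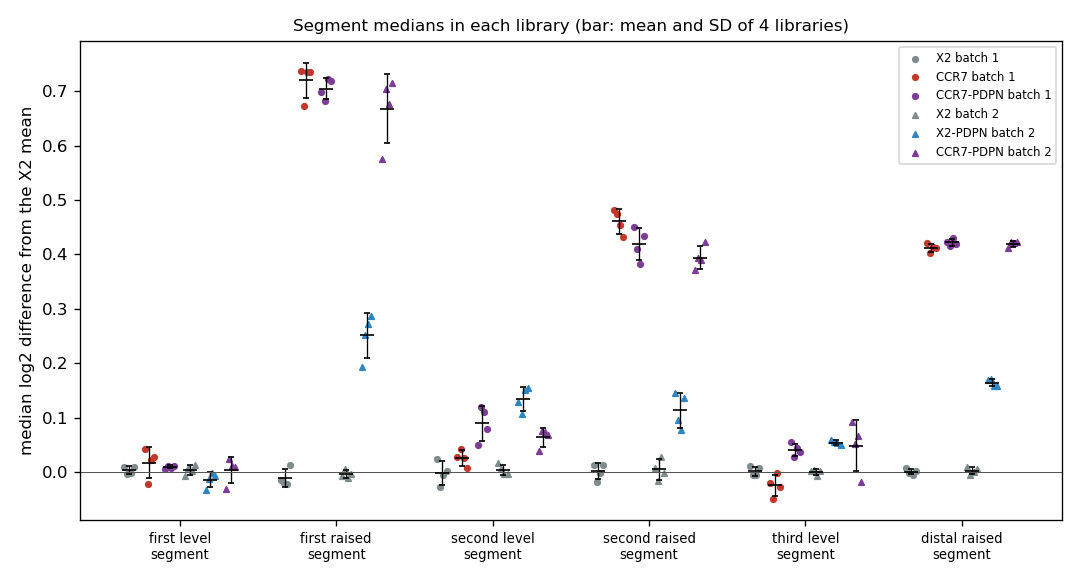
Median log2 difference from the X2 mean of the batch (vertical axis) for the genes of each of the 6 segments (horizontal axis), with 1 point per library, circles for batch 1 and triangles for batch 2. Bars are the mean and SD of 4 libraries. In the distal raised segment, X2-PDPN lies between 0.158 and 0.17, CCR7-PDPN of batch 2 between 0.411 and 0.422.

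Genes on the 2 sides of a border did not always follow it. Chek1 (chr9:36708482-36727065, minus strand) and Stt3a (chr9:36729344-36767679, minus strand) lie 2.28 kb apart. In X2 of batch 1 Chek1 was at 29.3, 28.6, 28.9 and 29.2 TPM, and in CCR7 at 36.5, 40.3, 37.1 and 38.4 TPM (log2 fold change 0.39, SE 0.04, adjusted p = 4.25e-08). Stt3a was at 134, 134, 129.5 and 135 TPM and 144, 161, 161 and 161 TPM (log2 fold change 0.23, SE 0.033, adjusted p = 6.54e-06). In CCR7-PDPN of batch 2 the log2 fold changes against X2 were 0.40 for Chek1 and 0.051 for Stt3a, the latter with an adjusted p of 0.077. Ei24, a membrane protein of the endoplasmic reticulum and the next gene after Stt3a, was again higher (log2 fold change 0.61, SE 0.032, adjusted p = 7.89e-21). It was chosen after its values were seen. Scaper was higher in CCR7 (log2 fold change 0.47, SE 0.059, adjusted p = 1.02e-06) and Rcn2, a calcium-binding protein of the secretory pathway beyond a gap of 104 kb, was lower (log2 fold change -0.10, SE 0.036, adjusted p = 0.03). Pkm, the pyruvate kinase of glycolysis (also chosen after its values were seen), overlaps the uncharacterised Gm49759 on the same strand, so reads of both could have been split between them.

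The number of segments depended on the penalty, and the place of a border on the comparison. In CCR7 against X2, penalties of 2, 3 and 5 gave 8, 4 and 2 segments. At 3 and 5 the first raised segment was not set apart, and at 5 the second was not either. The border before Gramd2 was placed at each penalty. With CCR7-PDPN against X2 of batch 1 at a penalty of 2.5, the first raised segment ended at Slc37a2 (37.2 Mb) in place of Chek1. The second began at Plet1 and ended at Snx33 (56.9 Mb), and the distal one began at Pkm. With CCR7-PDPN against X2 of batch 2, the first raised segment was longer and weaker, from Yipf2 (21.6 Mb) to Nectin1 (43.8 Mb) with a median of 0.26, the second ran from Plet1 to Scaper, and the distal one again began at Pkm. With CCR7-PDPN against X2-PDPN there was 1 border, between Pias1 and Map2k5. With X2-PDPN against X2 the segmentation found 2 segments, with a border between Timm29 and Smarca4 (21.6 and 21.7 Mb), and with CCR7-PDPN against CCR7 it found 1.

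Some genes lay far from their stretch. A gene was counted as far when its log2 fold change differed by more than 1 from the median of the other tested genes of its window, with an adjusted p under 0.05. This held for 39 of 704 (5.54%, against 5.5% over the genome) in CCR7 against X2, and for 56 of 704 (7.95%, against 8.12% over the genome) and 58 of 697 (8.32%, against 8.02% over the genome) in CCR7-PDPN against X2 of batch 1 and batch 2. It held for 27 of 697 (3.87%, against 4.28% over the genome) in X2-PDPN against X2, for 24 of 704 (3.41%, against 3.19% over the genome) in CCR7-PDPN against CCR7 and for 47 of 697 (6.74%, against 6.64% over the genome) in CCR7-PDPN against X2-PDPN. The genes named next were the 3 farthest above and below in each comparison among those whose average log2 CPM was 1 or more, with an adjusted p under 0.05 and libraries that did not overlap. Genes with fewer counts can lie farther out.

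The inflammatory caspases Casp1, Casp4 and Casp12 lie side by side near the centromeric end (Casp1 chr9:5298508-5307290, plus strand), in a level window. Casp1, which cleaves interleukin-1 beta, had 81, 61, 91 and 90 counts in X2, 21, 12, 19 and 11 in CCR7 and 3, 2, 3 and 5 in CCR7-PDPN of batch 1. In batch 2 it had 75, 66, 106 and 104 counts for X2, 163, 199, 155 and 119 for X2-PDPN and 1, 6, 5 and 5 for CCR7-PDPN. It fell in CCR7-PDPN (log2 fold change -4.28, SE 0.25, adjusted p = 3.80e-19) and rose in X2-PDPN (log2 fold change 0.77, SE 0.12, adjusted p = 6.12e-07). Casp4, which senses cytosolic lipopolysaccharide, was at 9.01, 9.17, 9.51 and 10 TPM for X2, 8.11, 7.44, 7.8 and 7.4 for X2-PDPN and 0.963, 0.928, 0.792 and 1.56 for CCR7-PDPN (log2 fold change -3.14, SE 0.12, adjusted p = 1.60e-25). No group overlapped another. Casp12 fell in CCR7-PDPN (log2 fold change -3.81, SE 0.21, adjusted p = 5.87e-20) and stood at -0.073 in X2-PDPN, with an adjusted p of 0.64.

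Ubash3b, a phosphatase that dampens tyrosine kinase signalling (chr9:41011098-41161697, minus strand), lay in a level segment. It was at 6.15, 6.12, 6.57 and 5.81 TPM in X2, 1.04, 1.09, 1.23 and 1.21 in CCR7 and 0.271, 0.42, 0.391 and 0.471 in CCR7-PDPN. Each group lay below the one before it (log2 fold change -2.44, SE 0.099, adjusted p = 1.09e-14 for CCR7, and log2 fold change -3.96, SE 0.12, adjusted p = 5.21e-17 for CCR7-PDPN). In X2-PDPN it was at 5.17, 4.73, 5.18 and 5.16 TPM, against 6.4, 6.47, 6.84 and 6.59 in X2 (log2 fold change -0.39, SE 0.071, adjusted p = 9.42e-06). The noncoding 3110039I08Rik, the next included gene, was lower in CCR7 (log2 fold change -2.66, SE 0.23, adjusted p = 1.10e-07) and higher in X2-PDPN (log2 fold change 0.99, SE 0.18, adjusted p = 9.99e-04).

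Adamts7, a secreted metalloproteinase that cleaves cartilage matrix proteins, lay within the distal raised segment (chr9:90163069-90208071, plus strand) but fell in all 3 derivatives. It was at 5.06, 4.85, 5.38 and 5.73 TPM for X2, 1.98, 2.24, 2.78 and 1.91 for X2-PDPN and 0.647, 0.586, 0.786 and 0.493 for CCR7-PDPN, with no overlap between groups (log2 fold change -1.24, SE 0.1, adjusted p = 1.92e-14 for X2-PDPN, and log2 fold change -3.04, SE 0.13, adjusted p = 3.64e-24 for CCR7-PDPN). Dmxl2, a regulator of the vacuolar proton pump, lay in the second raised segment and was lower in CCR7 (log2 fold change -2.0, SE 0.13, adjusted p = 4.75e-11), with -0.015 in X2-PDPN (adjusted p = 0.92). Tmed3, a cargo receptor of the early secretory pathway, was lower in CCR7 (log2 fold change -0.88, SE 0.067, adjusted p = 4.15e-10) but at -0.073 in CCR7-PDPN of batch 1 (adjusted p = 0.32).

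Above their level windows lay Acp5, Stra6 and the noncoding 4930461G14Rik. Acp5, an acid phosphatase best known from osteoclasts, was at 5.83, 6.06, 6.54 and 6.35 TPM for X2, 13.7, 12.4, 13 and 12.4 for X2-PDPN and 35.1, 32.3, 36.1 and 31.4 for CCR7-PDPN (log2 fold change 2.46, SE 0.078, adjusted p = 3.93e-29). The 3 groups did not overlap. Stra6, the receptor for retinol-binding protein, was instead highest in X2-PDPN, at 6.64, 5.87, 6.38 and 7.1 TPM, against 1.49, 0.976, 1.31 and 1.14 in X2 and 3.15, 3.87, 3.57 and 3.42 in CCR7-PDPN (log2 fold change 2.39, SE 0.11, adjusted p = 5.63e-23 for X2-PDPN against X2). Its neighbour Islr, a secreted leucine-rich repeat protein, rose in X2-PDPN as well (log2 fold change 2.02, SE 0.15, adjusted p = 5.94e-16), as did Cdon, a co-receptor of Hedgehog ligands in the first raised segment (log2 fold change 1.98, SE 0.09, adjusted p = 8.78e-23). Cdon was at 0.053 in CCR7-PDPN of batch 2 (adjusted p = 0.71).

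Gm32171, a long noncoding RNA, opened the first raised segment and was well above it (log2 fold change 2.74, SE 0.15, adjusted p = 2.44e-20, in CCR7-PDPN of batch 2). Plet1, an epithelial surface protein, stood apart in the PDPN comparison of batch 1, higher in CCR7-PDPN than in CCR7 (log2 fold change 1.22, SE 0.12, adjusted p = 1.16e-07), and was higher in X2-PDPN (log2 fold change 1.41, SE 0.13, adjusted p = 3.65e-13). Slc37a2, a sugar phosphate exchanger, was lower in X2-PDPN (log2 fold change -0.67, SE 0.092, adjusted p = 4.10e-08) and higher in CCR7-PDPN (log2 fold change 0.71, SE 0.08, adjusted p = 1.41e-10). Lower in X2-PDPN were also Angptl6, an angiopoietin-like secreted factor (log2 fold change -1.33, SE 0.1, adjusted p = 1.53e-14), and Snhg5, a small nucleolar RNA host gene (log2 fold change -0.75, SE 0.05, adjusted p = 4.35e-17).

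**Figure D4:**
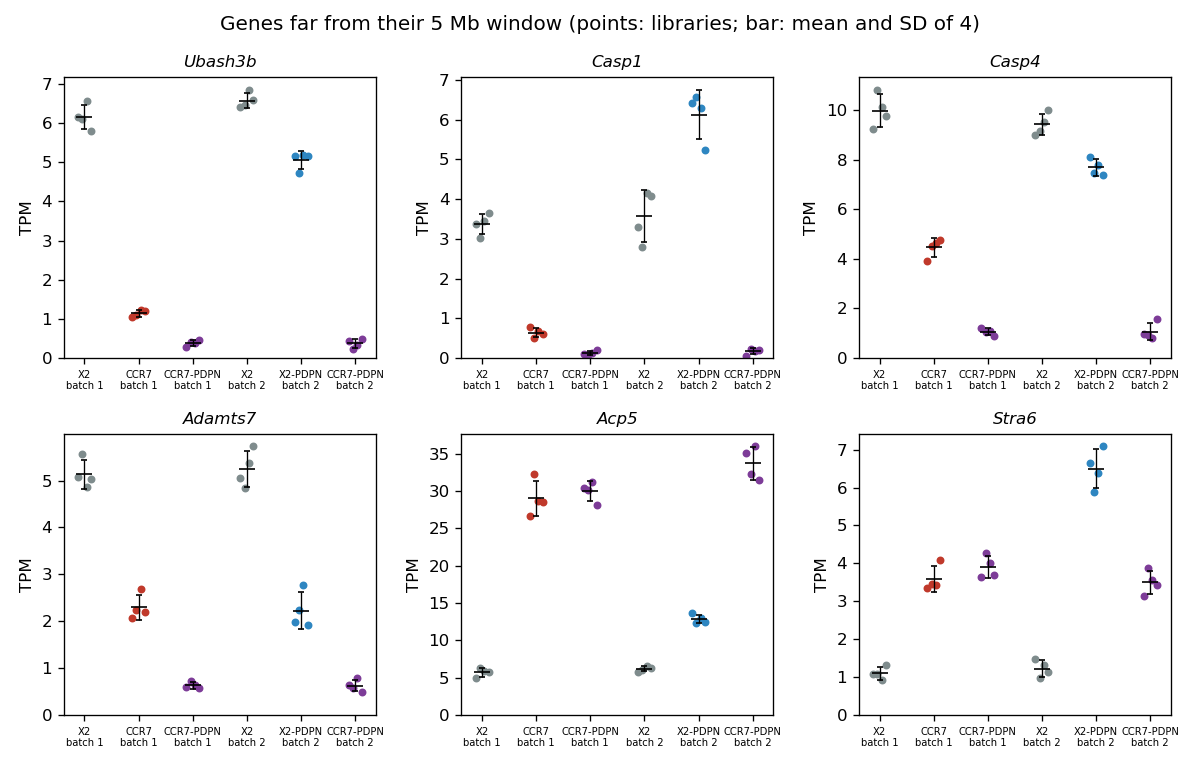
TPM (vertical axes, from 0) of 6 genes far from their window in the 6 groups (horizontal axes), with 1 point per library and bars for the mean and SD of 4 libraries. Ubash3b, Casp1, Casp4 and Adamts7 are lowest in CCR7-PDPN, Acp5 is highest in CCR7-PDPN, and Stra6 is highest in X2-PDPN.

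Gene groups on the chromosome were counted from lists drawn up with earlier results known. All listed genes lie on chromosome 9, so its own shares are the nearer background. Of its tested genes, 62% rose and 15.2% fell in CCR7-PDPN against X2 of batch 2. In X2-PDPN, 47.3% rose and 13.6% fell. The list counts were given no test against these shares, so no rise of a pathway is read from them. Of the DNA damage and cell cycle genes, which include the kinases Atm, Atr and Chek1, all 19 on the chromosome were included and 16 lay in raised segments, of whose tested genes 75.5% were higher in CCR7-PDPN against X2 of batch 2, and 54.6% were in X2-PDPN. Against X2 in batch 2, 15 of 19 rose (against 32.0% of all genes) and 2 fell (against 32.8%), with a median log2 fold change of 0.55, for CCR7-PDPN. In X2-PDPN, 17 of 19 rose (against 28.2% of all genes) and 1 fell (against 28.5%), with a median log2 fold change of 0.28. Atr rose in CCR7-PDPN (log2 fold change 0.60, SE 0.032, adjusted p = 8.69e-21), while Atm stood at 0.16 (adjusted p = 0.1). H2afx, the histone variant phosphorylated at DNA breaks, lies in a level segment and fell in CCR7 (log2 fold change -0.29, SE 0.034, adjusted p = 3.08e-07). Tfdp2, a dimer partner of E2F factors, rose in X2-PDPN (log2 fold change 0.67, SE 0.036, adjusted p = 3.32e-20).

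Of the TGF-beta, Wnt and Hippo pathway genes, 11 of 12 were included, 9 of them in raised segments. For CCR7-PDPN in batch 2, 10 of 11 rose (against 32.0% of all genes) and 0 fell (against 32.8%), with a median log2 fold change of 0.59, and in X2-PDPN, 9 of 11 rose (against 28.2% of all genes) and 1 fell (against 28.5%), with a median log2 fold change of 0.14. Smad6, an inhibitor of BMP signals, rose (log2 fold change 2.64, SE 0.3, adjusted p = 2.45e-10), and Acvr2b, an activin receptor, rose as well (log2 fold change 0.59, SE 0.065, adjusted p = 9.65e-11). Of the actin, contractile and adhesion genes, 16 of 23 were included, 12 of them in raised segments. Of these, 11 of 16 rose (against 32.0% of all genes) and 3 fell (against 32.8%), with a median log2 fold change of 0.43, in CCR7-PDPN of batch 2, while 12 of 16 rose (against 28.2% of all genes) and 1 fell (against 28.5%), with a median log2 fold change of 0.24, in X2-PDPN. Myo5a, a myosin motor of vesicles, rose in CCR7 (log2 fold change 0.92, SE 0.053, adjusted p = 4.75e-10), and Mcam, an adhesion molecule, fell in CCR7-PDPN (log2 fold change -0.78, SE 0.13, adjusted p = 2.02e-06) but rose in X2-PDPN (log2 fold change 0.77, SE 0.11, adjusted p = 4.15e-08).

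Of the lipid and sterol genes, 11 of 18 were included, 6 of them in raised segments. In batch 2, 8 of 11 rose (against 32.0% of all genes) and 1 fell (against 32.8%), with a median log2 fold change of 0.44, in CCR7-PDPN, and in X2-PDPN, 7 of 11 rose (against 28.2% of all genes) and 0 fell (against 28.5%), with a median log2 fold change of 0.14. Sc5d, an enzyme of cholesterol synthesis, rose in CCR7-PDPN of batch 2 although it lies in a level segment (log2 fold change 0.66, SE 0.033, adjusted p = 5.17e-22). Of the matrix and matrix-modifying genes, 11 of 27 were included, 8 of them in raised segments. Among them, 6 of 11 rose (against 32.0% of all genes) and 4 fell (against 32.8%), with a median log2 fold change of 0.27, in CCR7-PDPN of batch 2, while 6 of 11 rose (against 28.2% of all genes) and 4 fell (against 28.5%), with a median log2 fold change of 0.21, in X2-PDPN. Mmp3, a stromelysin, fell in CCR7-PDPN (log2 fold change -3.10, SE 0.26, adjusted p = 4.47e-14), and Dag1, the laminin receptor dystroglycan, rose (log2 fold change 0.59, SE 0.028, adjusted p = 1.70e-22). Of the innate immune and interferon-related genes, 10 of 15 were included, 3 of them in raised segments. In the same comparison, 5 of 10 rose (against 32.0% of all genes) and 3 fell (against 32.8%), with a median log2 fold change of 0.14, and in X2-PDPN, 4 of 10 rose (against 28.2% of all genes) and 2 fell (against 28.5%), with a median log2 fold change of 0.048. Birc3, an inhibitor of apoptosis, rose in CCR7-PDPN (log2 fold change 1.04, SE 0.13, adjusted p = 4.50e-09). In that comparison, the shares of the matrix and the innate immune lists that fell lay near that over all genes. They lay above that of all tested chromosome 9 genes (15.2%), but the lists are short and were given no test. None of the 13 chemokine receptor genes of the chromosome was included.

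Apart from a minimum level for the genes that placed the borders, the level of a gene and its length were not used by the windows or the segments. With the genes of the raised segments split into 3 equal groups by mean TPM, medians were 0.30, 0.44 and 0.45 from the lowest to the highest level in CCR7-PDPN against X2 of batch 2, and 0.19, 0.17 and 0.15 in X2-PDPN. The quartiles lay further apart at the lowest level, from -0.021 to 0.63, than in the highest, from 0.37 to 0.60. Split in the same way by exonic length, from short to long, the medians were 0.42, 0.44 and 0.40 in CCR7-PDPN. Genes on the plus and minus strands of the raised segments had medians of 0.44 and 0.39. Protein-coding genes were 350 of the 400 in the distal raised segment and 108 of the 117 in the first level segment. In all, 624 of the 712 genes were protein-coding, and 28 were annotated as processed or unprocessed pseudogenes, whose counts can be shared with a parent gene and are uncertain. The third level segment was the densest, with 13.2 included genes per Mb, against 6.17 in the distal raised segment.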

How the data were processed

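Per the labels, the authors mapped 75 bp single-end reads of stranded polyadenylated RNA libraries to GRCm38 (mm10), counted them per Ensembl gene with featureCounts, and deposited these raw counts library by library. The aligner, the counting options and the strand setting are not given in the sources used here. The batch 2 table lists fewer genes. All 24 columns were matched to samples.

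Groups of 1 batch were compared by edgeR 4.0.16 in R 4.3.3 (TMM factors, filterByExpr, quasi-likelihood tests over the 3 groups, Benjamini-Hochberg adjustment over all genes tested). The difference of PDPN differences was fitted over 24 libraries and 6 groups. Calls had an adjusted p under 0.05, and a second rule also asked for a log2 fold change beyond 1. Of the 712 genes, 704 were tested in batch 1, 697 in batch 2 and 706 over both, the rest having too few counts or no batch 2 row. TPM was computed here from the counts and exonic lengths over the listed genes of a table, and library values used log2 CPM with a prior count of 2. Segments used a penalty of 2.5 and at least 8 genes, over genes with an average log2 CPM of 1 or more. Named genes were the 3 farthest above and below their window per comparison (average log2 CPM of at least 1, libraries not overlapping), the 2 nearest to each called window's median, border genes, and list examples.

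The scripts were tested on simulated data. DESeq2, other scalings, filters, windows, limits, a replicate block and leaving out each library were tried. The included genes and the lists were chosen with earlier results of these data known. No 2 libraries of a group agreed within sampling noise.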

Additional observations from a re-analysis of the deposited data

Results flagged for a closer look

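In 4 groups of 4 libraries, the gap of the highest or lowest library to its nearest neighbour, as a share of the range of the group, exceeded Dixon's limit. They were the median of the first raised segment in CCR7 of batch 1 (0.973), 3110039I08Rik in CCR7 of batch 1 (0.878), Stra6 in CCR7 of batch 1 (0.88) and Cdon in X2 of batch 2 (0.899). Chance flags about 1 in 20 groups, and the number checked is not given here, so nothing is read from these flags.

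The PDPN difference with CCR7 (batch 1) differed from the one without it (batch 2) for 14 of the 18 genes named as far from their window, 3 higher and 11 lower, in the edgeR test of the difference itself. Over all 13690 genes tested, 20.3% were higher and 20.5% lower. The 18 genes were chosen in part from the same contrasts, so nothing is read from their count. The log2 differences were those of 4930461G14Rik (-1.14), Acp5 (-0.97), Gm32171 (-0.75), Ubash3b (-1.14), Dmxl2 (0.83), Adamts7 (-0.6), Casp4 (-1.72), Tmed3 (0.56), Casp12 (-1.97), Stra6 (-2.23), Islr (-1.28), Cdon (-1.61), Casp1 (-3.05) and Slc37a2 (0.66), where a negative value means a lower PDPN difference in cells with CCR7. Batch and CCR7 status cannot be told apart in them.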

How the results depend on the processing

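Of 812 recomputed counts, window shares and raised-segment medians, 738 stayed within 1.5 times the main count or within 1 SD of the libraries, and 74 did not. All 540 recomputed values of genes far from their window kept their direction and an adjusted p under 0.05. Below, CP is CCR7-PDPN and XP is X2-PDPN, with the batch in parentheses. With TMM factors without chromosome 9, values were: the raised-segment median 0.439 in CCR7/X2, 0.437 in CP/X2 (1), 0.444 in CP/X2 (2), 0.278 in CP/XP, -0.164 in the difference of PDPN differences. With at least 50 counts in 4 libraries, values were: genes higher by over 2-fold 17 in CCR7/X2, 28 in CP/X2 (1), 2 in CP/CCR7, 16 in XP/X2, 29 in CP/X2 (2), 6 in CP/XP, 1 in the difference of PDPN differences, and genes lower by over 2-fold 9 in CCR7/X2, 13 in CP/X2 (1), 9 in CP/CCR7, 3 in XP/X2, 13 in CP/X2 (2), 19 in CP/XP, and the raised-segment median 0.434 in CP/X2 (1), 0.435 in CP/X2 (2), -0.171 in the difference of PDPN differences. With 2.5 Mb windows, values were: percent of tested genes in lowered windows 0.852 in CCR7/X2, 0.852 in CP/X2 (1), 0.852 in CP/CCR7, 0.861 in CP/X2 (2), 0.861 in CP/XP. With a limit of 0.20 for a window, values were: percent of tested genes in lowered windows 1.7 in CP/CCR7, 1 in CP/X2 (2), and percent of tested genes in raised windows 19.7 in XP/X2. With no filter on low counts, values were: the raised-segment median 0.155 in XP/X2, 0.272 in CP/XP. With only the 2 groups compared, values were: the raised-segment median 0.157 in XP/X2. With a limit of 0.35 for a window, values were: percent of tested genes in raised windows 0 in XP/X2, 0 in CP/XP. With DESeq2, values were: genes higher by over 2-fold 3 in the difference of PDPN differences, and the raised-segment median -0.161 in the difference of PDPN differences. With RLE size factors, values were: the raised-segment median -0.161 in the difference of PDPN differences. With borders from CCR7-PDPN against X2, batch 1, values were: the raised-segment median 0.423 in CCR7/X2, 0.42 in CP/X2 (1). With borders from CCR7-PDPN against X2, batch 2, values were: the raised-segment median 0.439 in CP/X2 (1), 0.0218 in CP/CCR7, 0.439 in CP/X2 (2). Leaving out 1 library in turn gave ranges of: the raised-segment median 0.422 to 0.436 in CCR7/X2, 0.417 to 0.434 in CP/X2 (1), 0.00363 to 0.0167 in CP/CCR7, 0.153 to 0.167 in XP/X2, 0.412 to 0.429 in CP/X2 (2), 0.26 to 0.272 in CP/XP, -0.164 to -0.148 in the difference of PDPN differences, and percent of tested genes in lowered windows 0 to 1.69 in CP/CCR7, 0 to 0.997 in CP/X2 (2), and percent of tested genes in raised windows 3.71 to 11.3 in XP/X2, and genes higher by over 2-fold 1 to 6 in the difference of PDPN differences. The replicate block gave, higher and lower, 413 and 85 in CCR7/X2, 414 and 99 in CP/X2 (1), 137 and 91 in CP/CCR7, 335 and 95 in XP/X2, 433 and 106 in CP/X2 (2), 377 and 123 in CP/XP, 62 and 237 in the difference of PDPN differences, and moved 0 of 47 values out of that range. Deviations of same-numbered libraries had correlations of -0.12 to 0.106, so they share only a number and were not taken as pairs. Fewer genes were tested with at least 50 counts. The cause of the other changes was not tested. With 1 population per derivative, no value bears on other transductions or sorts.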
